A study of Homo sapiens with 2 samples.

Results

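The genes described here are 38 integrins and leukocyte adhesion receptors, chosen by name out of 50868 genes in a bulk RNA-seq table of Molm13 cells. They were 14 integrin alpha subunits, 6 integrin beta subunits, the integrin adapters TLN1 and FERMT3, 4 ICAMs, 7 other receptors of the immunoglobulin type and 5 glycoproteins and proteoglycans. Molm13 (MOLM-13) is a human acute myeloid leukemia (AML) cell line. The table held 1 Vector library (OE-Control) and 1 library labelled OE-UNC5B, for which the methods describe lentiviral overexpression of UNC5B, a netrin receptor. Both were grown in RPMI medium with serum, and the methods give puromycin for the selection of infected cells. The question was which adhesion genes Molm13 expressed, and how far their levels differed between the libraries.

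The libraries held 13715566 (Vector) and 15637137 (OE-UNC5B) counted reads. UNC5B itself had 0 reads in both, which goes against the label of the library meant to overexpress it. That library is named below only by its label, and every direction rests on the label. With 1 library per group there is no replicate check and no test of the conditions, and the 95% intervals below cover counting error only. Markers of the myeloid line were present, with 1775 and 2299 reads of CD33 and 3219 and 3228 reads of SPI1 (Vector first, here and wherever values are paired). CD14, a marker of mature monocytes, had 4 and 5 reads. The 6 megakaryocyte and platelet markers had 0 reads in both libraries, the 8 endothelial markers together had 5 and 5 reads, and the 6 markers of epithelial and HEK293 cells had 5 and 2. Among 7 lymphoid markers NKG7 (340 and 315 reads) and CD3D (67 and 102 reads) held nearly all reads, while CD79A had 3 and 10 and CD3E 1 and 0. The 6 stromal markers had 34 and 12 reads, mostly COL1A1 (21 and 9) and COL1A2 (8 and 2). Fewer cells with a transcript and less of it per cell cannot be told apart in bulk RNA.

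An integrin is a pair of 1 alpha and 1 beta subunit that spans the plasma membrane, binds matrix or a receptor on another cell, and is switched to its binding state from inside the cell by talin and kindlin. In leukocytes the beta2 integrins bind ICAMs, the alpha4 integrins bind VCAM-1, fibronectin or MAdCAM-1, and the mucin PSGL-1 starts rolling on selectins. Leukemic cells use the same receptors to lodge in the bone marrow, where contact with stroma and endothelium is known to lower their response to drugs.

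Levels between genes were compared in the deposited FPKM, a count corrected for gene length and library total. A gene was taken as expressed at an FPKM of at least 1 in both libraries, which held for 21 of the 38 genes. Another 10 reached 10 reads over both libraries at a lower level. The remaining 7 (ITGA1, ITGA2, ITGA2B, ITGA3, ITGA9, ITGB3 and ITGB8) did not and were not compared, with at most 5 reads in either library. A floor of 3 reads corresponded to 0.219 CPM (reads scaled to library size) for Vector and 0.192 CPM for the library labelled OE-UNC5B. The plot of levels by library shows this spread.

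**Figure D1:**
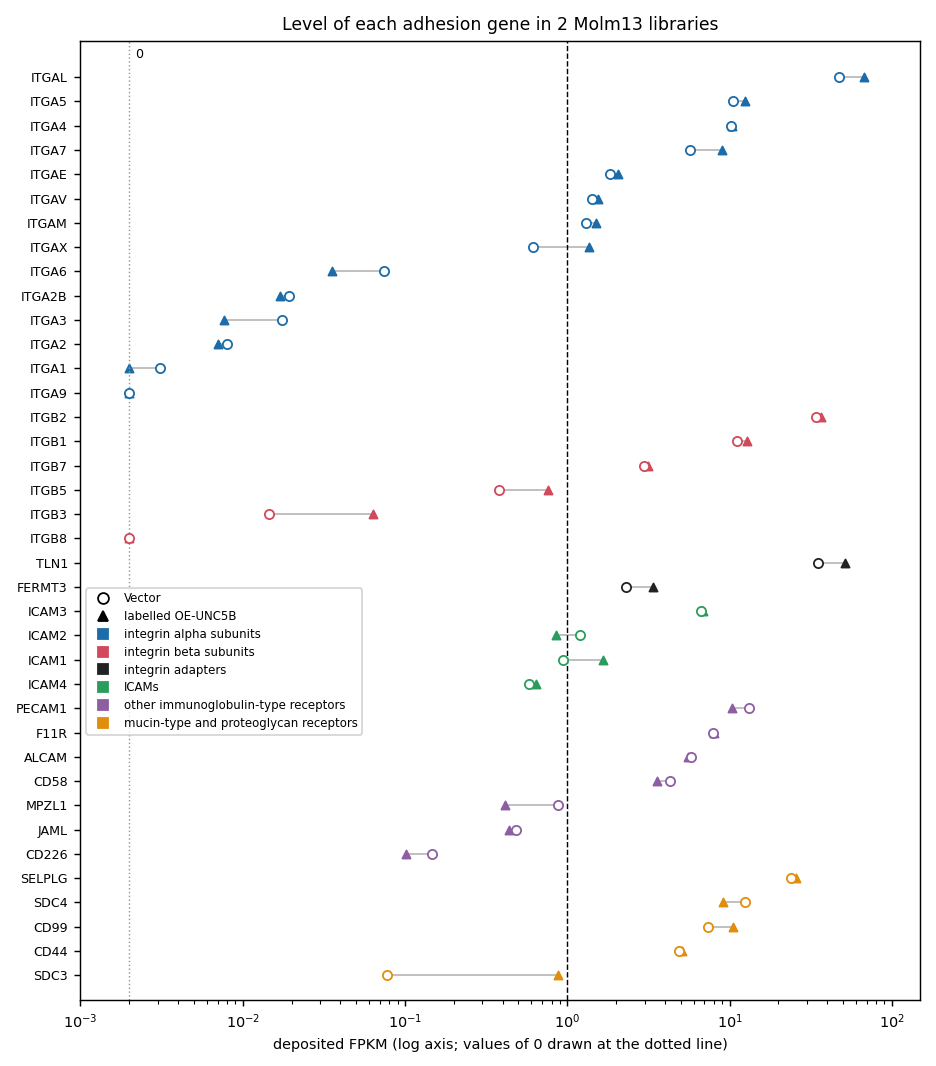
Deposited FPKM (log axis) of the 38 adhesion genes in Vector (open circles) and in the library labelled OE-UNC5B (triangles), ordered within each role by the level in Vector. The dashed line marks an FPKM of 1 and the dotted line holds values of 0. ITGAL, ITGB2 and TLN1 lie furthest to the right in both libraries, and SDC3 has the longest line between its points.

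SDC3 and MPZL1 stood furthest from no change among the adhesion genes, each in its own direction. SDC3, the syndecan-3 core protein of a cell surface heparan sulfate proteoglycan, was 10.4-fold higher in the library labelled OE-UNC5B, and MPZL1, an immunoglobulin-type receptor that binds the phosphatase SHP-2, was 2.20-fold lower. The 250 bases before their RefSeq start sites are shown because these genes stand at the ends of the range. SDC3 lies on chromosome 1 from 30869467 to 30908761 on the minus strand and MPZL1 on chromosome 1 from 167721192 to 167791919 on the plus strand (GRCh38). The windows are chr1:30908759-30909008 for SDC3 and chr1:167721732-167721981 for MPZL1 (RefSeq, GRCh38.p14), each printed 5′ to 3′ on the strand of its gene. The MPZL1 window lies inside the gene by its deposited position. Capitals mark the GC box GGGCGG, searched on both strands.
SDC3: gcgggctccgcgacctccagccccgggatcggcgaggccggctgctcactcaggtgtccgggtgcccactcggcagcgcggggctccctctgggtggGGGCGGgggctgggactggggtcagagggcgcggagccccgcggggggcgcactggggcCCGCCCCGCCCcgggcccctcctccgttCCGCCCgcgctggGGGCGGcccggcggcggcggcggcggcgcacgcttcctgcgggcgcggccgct
MPZL1: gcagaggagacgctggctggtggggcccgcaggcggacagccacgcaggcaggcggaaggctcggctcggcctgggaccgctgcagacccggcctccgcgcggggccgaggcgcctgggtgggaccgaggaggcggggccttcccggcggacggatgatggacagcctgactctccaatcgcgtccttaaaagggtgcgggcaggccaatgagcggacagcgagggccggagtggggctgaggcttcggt
The SDC3 window holds 5 GC boxes, of which a neighbouring pair overlaps, and 83.6% G or C. The MPZL1 window holds 0 GC boxes and 72.8% G or C, and neither window holds TATAAA on either strand. Among all 35116 RefSeq promoters a GC box is found in 42.6% and TATAAA in 10.7%. Of the 38 adhesion genes 27 had an entry, with 37 promoters, of which 56.8% hold a GC box and 8.1% TATAAA. These matches describe letters only.

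Among alpha subunits, ITGAL was the most abundant. It encodes alphaL, which pairs with beta2 to form LFA-1, the receptor for ICAMs. ITGAL had an FPKM of 47.1 in Vector against 67.2 in the library labelled OE-UNC5B, more than the other alpha subunits together, at 59.9% and 63.6% of the summed alpha FPKM. ITGA5, whose product pairs with beta1 as the classical fibronectin receptor, had 10.4 and 12.5. ITGA4, the alpha subunit of VLA-4 and of the gut-homing alpha4beta7, had 10.2 and 10.4. ITGA7, best known as a laminin receptor of muscle, was the fourth in order at 5.67 and 9.02, though over canonical transcripts, described below, it came before ITGA4 in both libraries. These 4 genes carried nearly all of the alpha FPKM in both libraries.

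The next alpha subunits lay close to the expression threshold. ITGAE, the alphaE subunit that binds E-cadherin together with beta7, had an FPKM of 1.84 in Vector against 2.06 in the library labelled OE-UNC5B. ITGAV, the alphaV subunit of vitronectin receptors, had 1.42 and 1.56. ITGAM (CD11b), the alpha subunit of the complement receptor Mac-1, had 1.2998 and 1.499. The order of these 3 was the same in both libraries, and no spread between replicates stands behind it. ITGAX (CD11c), the alpha subunit of the other complement receptor of the beta2 class, had 0.615 in Vector against 1.36 in the library labelled OE-UNC5B. ITGA6, a laminin-binding subunit, had 0.074 and 0.036, which came from 11 and 6 reads.

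The collagen-binding subunits ITGA1 and ITGA2 had 1 and 0 reads and 1 and 1 reads. ITGA2B, the platelet subunit CD41, had 2 and 2 reads, ITGA3, a laminin-binding subunit, had 4 and 2, and ITGA9, which binds tenascin and VCAM-1, had 0 in both. All 5 were at or under the floor of 3 reads in at least 1 library, and none was compared.

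Of the beta subunits, ITGB2 (CD18), the common partner of ITGAL, ITGAM and ITGAX, had an FPKM of 33.9 in Vector against 36.7 in the library labelled OE-UNC5B, or 70.2% and 68.5% of the summed beta FPKM. ITGB1, the partner of ITGA4, ITGA5 and ITGA7, had 11.04 and 12.9. ITGB7, the partner of ITGA4 and ITGAE, had 2.95 and 3.13. The order of these 3 was the same in both libraries. ITGB5, which pairs with alphaV, had 0.380 and 0.757, ITGB3, the subunit of the platelet fibrinogen receptor, had 1 and 5 reads, and ITGB8 had 0 in both.

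The deposited FPKM rests on long gene lengths, and this bears on levels between genes. The length that counts and FPKM imply was 21290 bases for CD44, against 5431 bases for its canonical transcript in GENCODE 44. Over the 21 expressed genes the implied length was between 1.0 and 5.74 times the canonical one, with a median of 2.47. FPKM recomputed over the canonical transcript was 119 for ITGAL and 144 for ITGB2 in Vector, so that ITGB2 came before ITGAL. In the library labelled OE-UNC5B it was 170 for ITGAL and 156 for ITGB2. The 3 alpha partners of beta2 (ITGAL, ITGAM and ITGAX) summed to 1.45 times ITGB2 in Vector and 1.91 times in the library labelled OE-UNC5B by the deposited FPKM, and to 0.849 and 1.12 times over canonical transcripts. ITGA5 stood at 0.946 and 0.970 of ITGB1 by the deposited FPKM and at 0.997 and 1.02 over canonical transcripts, while ITGA4 stood at 0.920 and 0.803 or 0.562 and 0.491. The order of ITGAL and ITGB2 in Vector, and of ITGA4 and ITGA7 in both libraries, thus depended on the length, whereas a difference between the libraries does not use it.

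**Figure D2:**
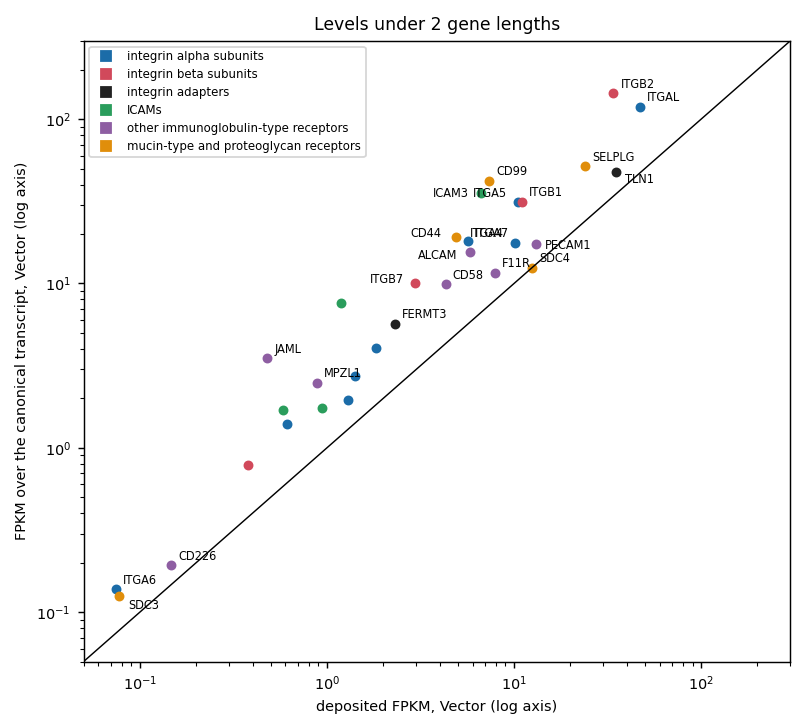
FPKM in Vector of the 31 genes with at least 10 reads, as deposited (horizontal) and over the GENCODE 44 canonical transcript (vertical), both on log axes, with a line of equal values. Points lie on or above the line, and ITGB2 is above ITGAL on the vertical axis while ITGAL is further right.

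Differences between the libraries were taken from counts scaled with TMM, with 0.5 reads added, for genes whose reads over both libraries reached 10, and are given as log2 fold changes of the library labelled OE-UNC5B over Vector. Of the 31 adhesion genes compared, 2 (SDC3 and ITGAX) were at least 2-fold higher and 2 (MPZL1 and ITGA6) at least 2-fold lower. This is 6.45% in each direction, where 5.15% of all 15384 genes compared were higher and 4.79% were lower by that fold. At 1.5-fold, 5 were higher (16.1%, against 12.9% of all genes) and 2 lower (6.45%, against 12.5%). The 95% interval of the reads lay above no change for 12 genes (38.7%, against 25.1% of all genes) and below it for 4 (12.9%, against 26.3%), and spanned it for 15. The median log2 fold change was 0.07 with quartiles of -0.15 and 0.46, where all genes had a median of -0.0069 and quartiles of -0.33 and 0.32.

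All 4 genes past 2-fold had an FPKM under 1 in at least 1 library. Of the 21 expressed adhesion genes 0 passed 2-fold in either direction and 1, ITGA7, passed 1.5-fold, while 190 of the 10535 genes compared at that level were 2-fold higher and 161 were 2-fold lower, and 817 and 834 passed 1.5-fold. That 0 depends on how expression is defined, since ITGAX (2-fold higher) and MPZL1 (2-fold lower) count as expressed at 1 CPM or over canonical transcripts, and ITGAX at 0.5 FPKM. The interval of the reads lay above no change for 8 of the 21 (ITGAL, ITGA5, ITGA7, ITGB1, ITGB2, TLN1, FERMT3 and CD99) and below it for 2 (PECAM1 and SDC4). This is 38.1% and 9.52%, where 3081 intervals lay above no change and 3373 below it among the 10535 genes of that level.

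**Figure D3:**
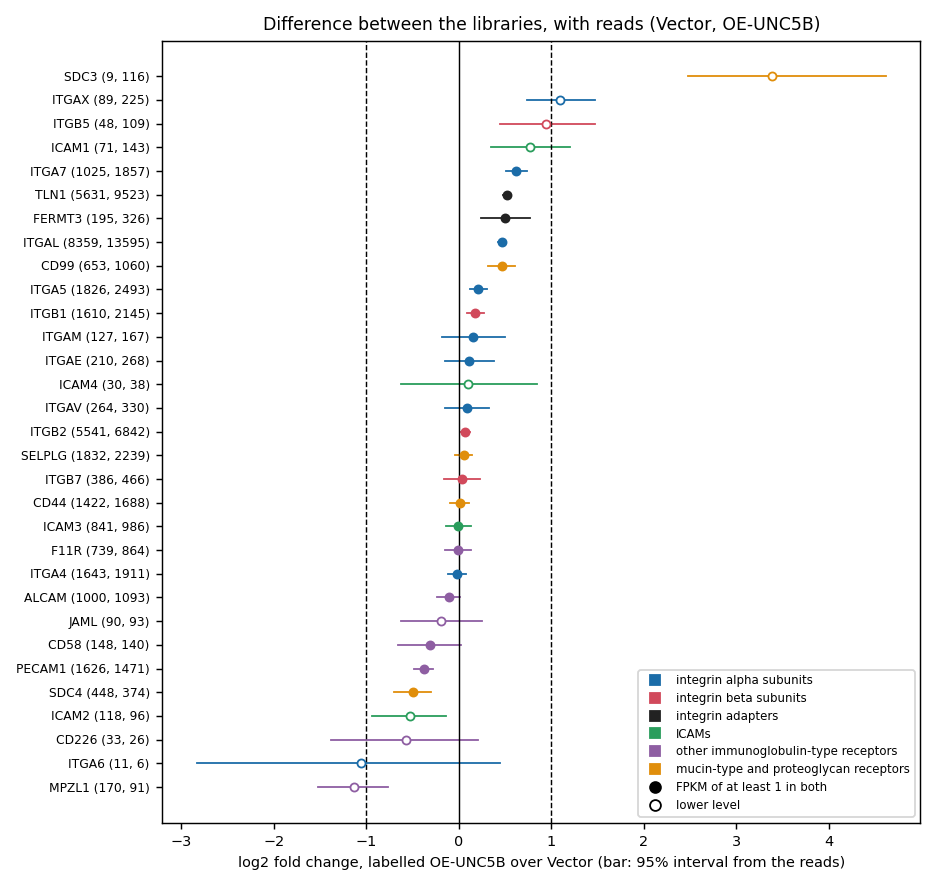
Log2 fold change of the library labelled OE-UNC5B over Vector for the 31 adhesion genes compared, with the 95% interval of the reads as a bar and the reads of both libraries beside each name. Filled points are genes with an FPKM of at least 1 in both libraries, and the dashed lines mark 2-fold. SDC3, ITGAX, ITGA6 and MPZL1 have points past the dashed lines and all 4 are open.

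Of the 13 integrin subunits compared, 7 had an interval above no change, 6 spanned it and 0 lay below it, or 53.8% above, against the 25.1% above and 26.3% below among all genes. ITGAL had 8359 reads in Vector against 13595 in the library labelled OE-UNC5B, a log2 fold change of 0.46 (0.43 to 0.50). ITGA7 had 1025 and 1857 reads, a log2 fold change of 0.62 (0.51 to 0.73). ITGA5 had 1826 and 2493 reads and a smaller log2 fold change of 0.21 (0.12 to 0.30). These were the expressed alpha subunits whose reads were higher beyond counting error. ITGA4 was close to even, with 1643 and 1911 reads and a log2 fold change of -0.02 (-0.11 to 0.08). ITGAE had 210 and 268 reads (0.11, -0.15 to 0.38), ITGAV 264 and 330 reads (0.08, -0.15 to 0.32) and ITGAM 127 and 167 reads (0.16, -0.18 to 0.50). The intervals of these 4 all held no change.

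ITGAX had 89 reads in Vector against 225 in the library labelled OE-UNC5B, which was 2.14-fold higher (log2 fold change 1.10, 0.74 to 1.47). ITGAX lies on chromosome 16 from 31355134 to 31382997 on the plus strand, and no other gene of GENCODE 44 shares its exons. ITGAM, which also pairs with beta2, differed by 1.11-fold. ITGA6 had 11 and 6 reads, and its interval of -2.83 to 0.45 around a log2 fold change of -1.06 holds no change.

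The 3 expressed beta subunits had smaller log2 fold changes than ITGAL. ITGB2 had 5541 reads in Vector against 6842 in the library labelled OE-UNC5B, a log2 fold change of 0.07 (0.02 to 0.12), which is near the size of the shift between scalings. ITGB1 had 1610 and 2145 reads, a log2 fold change of 0.18 (0.08 to 0.27), and ITGB7 had 386 and 466, a log2 fold change of 0.03 (-0.16 to 0.23). The intervals of ITGAL and ITGB2 did not overlap, so the reads of alphaL and of its partner differed between the libraries by unequal amounts. ITGB5 had 48 and 109 reads and was 1.92-fold higher (log2 fold change 0.94, 0.44 to 1.47) at a level below the expression threshold.

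Both adapters that bind integrin beta tails had more reads in the library labelled OE-UNC5B. TLN1 encodes talin-1, which ties the beta tail to actin and opens the integrin. It had 5631 reads in Vector against 9523 in the library labelled OE-UNC5B, a log2 fold change of 0.52 (0.47 to 0.57), with an FPKM of 34.9 and 51.8. FERMT3 encodes kindlin-3, the kindlin of blood cells that is needed beside talin. It had 195 and 326 reads, a log2 fold change of 0.50 (0.24 to 0.77). Their fold changes were nearly equal, and TLN1 stood at 15.1 and 15.3 times FERMT3 in the deposited FPKM and at 8.37 and 8.47 times over canonical transcripts.

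The ICAMs, the ligands of the beta2 integrins, did not share a direction. ICAM1, the ligand that inflammatory signals induce, had 71 reads in Vector against 143 in the library labelled OE-UNC5B, or 1.70-fold more (log2 fold change 0.77, 0.35 to 1.20). ICAM2, a ligand present on resting leukocytes and endothelium, had 118 and 96 reads, or 1.45-fold less (log2 fold change -0.53, -0.94 to -0.13). ICAM3, the ICAM of resting leukocytes, was the most abundant at an FPKM of 6.70 and 6.89. It had 841 and 986 reads (log2 fold change -0.01, -0.14 to 0.13). ICAM4, the red cell antigen LW, had 30 and 38 reads (0.10, -0.63 to 0.85). Other genes lie opposite the exons of ICAM4 (100%), ICAM3 (75.4%), ICAM2 (26.8%) and ICAM1 (25.4%). The use of strand in counting is not given in the sources used here. If strand was not used, position alone cannot assign reads in these stretches to a gene or to its partner. The gene opposite ICAM3, AC114271.1, had 84 and 123 reads, while PRR29, opposite ICAM2, had 0 in both libraries. The same holds for ITGB7, where ZNF740 with 925 and 1461 reads lies opposite 42.3% of the exon bases. CERKL, opposite 26.4% of the exon bases of ITGA4, had only 1 and 0 reads.

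All 7 other receptors of the immunoglobulin type had negative log2 fold changes, with a median of -0.32, although the intervals of 5 held no change and F11R turned positive under other scalings. Of all 15384 genes 7784 were negative, and 2 of these 7 had an interval below no change, against 26.3% of all genes. MPZL1 had 170 reads in Vector against 91 in the library labelled OE-UNC5B, a log2 fold change of -1.14 (-1.52 to -0.76), with an FPKM of 0.883 and 0.414. MPZL1 is among the genes the study picked from these libraries, so its direction here is not independent evidence. The paper also reported reduced MPZL1 by RT-qPCR in Molm13 and THP-1 cells, which is not part of the values used here. PECAM1 (CD31), which holds leukocytes and endothelium together during transmigration, had the highest deposited FPKM of the 7, at 13.1 and 10.4. Over canonical transcripts ALCAM was above it in the library labelled OE-UNC5B, with 14.9 for ALCAM against 13.8 for PECAM1. PECAM1 had 1626 and 1471 reads, or 1.303-fold less (log2 fold change -0.38, -0.48 to -0.28). PECAM1 is also an endothelial gene. Of the other endothelial markers, KDR, CDH5, TEK, ERG, EMCN and CLDN5 had 0 reads in both libraries, while ESAM had 4 and 3 and VWF 1 and 2.

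The intervals of the other 5 receptors held no change. CD58 (LFA-3), the ligand of CD2, had 148 and 140 reads (log2 fold change -0.32, -0.66 to 0.03). CD226 (DNAM-1), the receptor for PVR and NECTIN2, had 33 and 26 reads (-0.58, -1.38 to 0.20). JAML, a junctional adhesion molecule of leukocytes, had 90 and 93 reads (-0.19, -0.62 to 0.24). These 3 had few reads, whereas ALCAM (CD166), a ligand of CD6, had 1000 and 1093 (-0.11, -0.23 to 0.02). F11R (JAM-A), which can bind LFA-1, had 739 and 864 (-0.01, -0.16 to 0.13). F11R shares 36.6% of its exon bases with a readthrough gene of the same strand that had 0 reads in both libraries.

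Among the glycoproteins and proteoglycans, SDC3 had 9 reads in Vector against 116 in the library labelled OE-UNC5B, a log2 fold change of 3.38 (2.48 to 4.62), and its FPKM was 0.077 and 0.872. The related SDC4, syndecan-4, which takes part in focal adhesions, had 448 and 374 reads, or 1.41-fold less (log2 fold change -0.50, -0.70 to -0.30). The ratio of SDC4 to SDC3 in the deposited FPKM was 162 in Vector against 10.5 in the library labelled OE-UNC5B, and 99.9 against 6.47 over canonical transcripts, where the Vector ratio rests on 9 reads of SDC3. SDC2 had 824 and 1267 reads (0.38, 0.26 to 0.51) and SDC1, the syndecan of plasma cells, 1 and 0.

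SELPLG, which encodes the selectin ligand PSGL-1, had the highest deposited FPKM of these glycoproteins at 24.0 and 25.7, with 1832 and 2239 reads (log2 fold change 0.05, -0.04 to 0.14). CD44, the hyaluronan receptor, had 1422 and 1688 reads (0.01, -0.09 to 0.11). The intervals of both held no change. CD99, which acts in transmigration, had 653 and 1060 reads, or 1.38-fold more (0.46, 0.32 to 0.60). Over canonical transcripts CD99 was above SELPLG in the library labelled OE-UNC5B, at an FPKM of 60.0 for CD99 against 55.6 for SELPLG. CD99 has a related pseudogene, CD99P1, with 153 and 136 reads, and how shared reads were assigned is not given in the sources used here.

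**Figure D4:**
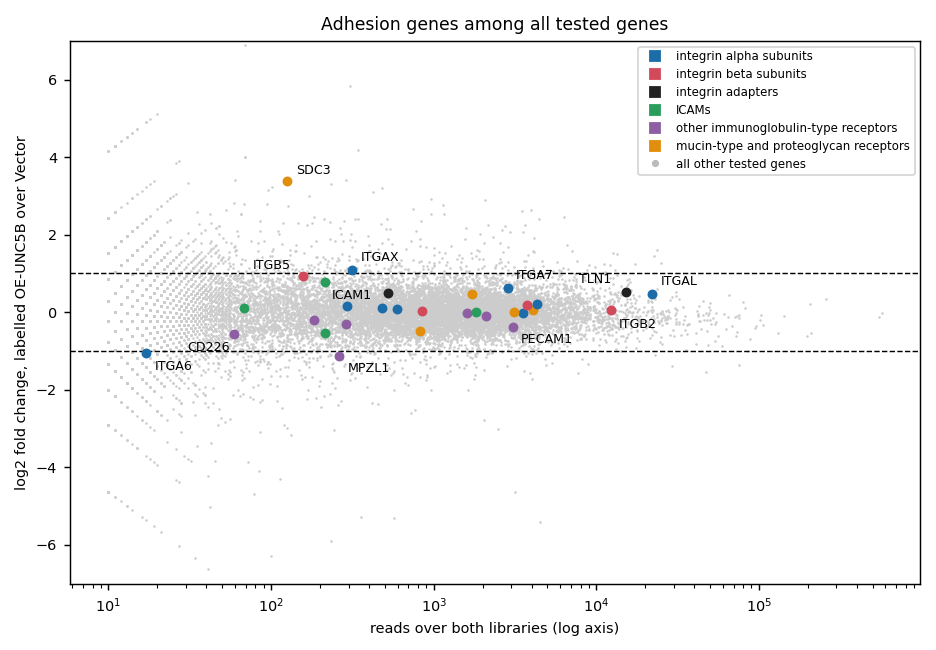
Log2 fold change of the library labelled OE-UNC5B over Vector against the reads of both libraries (log axis) for all 15384 genes compared (grey), with the adhesion genes in the color of their role. Dashed lines mark 2-fold, and 4 other genes lie beyond the axis limit of 7. The scatter widens toward few reads, where ITGA6 lies, and the adhesion genes with the most reads (ITGAL, TLN1 and ITGB2) lie between the dashed lines.

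The other genes of the pathway were taken as 5 lists with 83 genes, of which 60 were compared. Of these 60 genes 2 were 2-fold higher and 1 was 2-fold lower, or 3.33% and 1.67%, against 5.15% and 4.79% of all genes, and their median log2 fold change was 0.06. Of 36 genes of integrin activation and the adhesome 32 were compared, and 1 passed 2-fold. This was FYB1 (ADAP), an adapter that links surface receptors to integrin activation, with 147 reads in Vector against 404 in the library labelled OE-UNC5B (log2 fold change 1.22, 0.95 to 1.504). The intervals of 15 of these genes lay above no change and those of 11 below it, or 46.9% and 34.4%, against 25.1% and 26.3% of all genes. TLN2, the second talin, had 426 and 796 reads (0.66, 0.49 to 0.84). PTK2B (PYK2), a focal adhesion kinase of blood cells, had 4678 and 7641 (0.47, 0.42 to 0.52). ITGB1BP1 (ICAP-1), which competes with talin for the beta1 tail, had 647 and 434 reads (-0.81, -0.99 to -0.64). PARVB, a parvin of focal adhesions, had 811 and 628 (-0.61, -0.76 to -0.45). The named genes of this list thus lay in both directions.

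Of the other kindlins, FERMT1 had 269 and 264 reads at an FPKM of 2.74 and 2.36, beside 2.31 and 3.38 for FERMT3. Over its canonical transcript FERMT3 had 5.69 and 8.34, and no such value was computed for FERMT1, so their order is not settled. FERMT2 had 2 and 0 reads. Of 6 further integrin subunits 2 were compared. ITGA11, a collagen receptor of fibroblasts, had 1 read in Vector against 9 in the library labelled OE-UNC5B, and its log2 fold change of 2.43 had an interval of 0.08 to 8.39. ITGB4, the subunit of hemidesmosomes, had 12 and 11 reads.

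The partners that the receptors bind were also read. SELE and SELP, the selectins of endothelium and platelets, had 0 reads in both libraries, which is under the floor of 3 reads. Enzymes that make selectin ligands were counted, with 3781 and 3689 reads of the fucosyltransferase FUT4 (log2 fold change -0.27, -0.34 to -0.21) and 889 and 928 of FUT7 (-0.18, -0.31 to -0.04). TPST1, a tyrosylprotein sulfotransferase that can act on PSGL-1, had 24 and 11 reads and was the gene past 2-fold (-1.33, -2.54 to -0.28). The related TPST2 had 402 and 363 reads (-0.38, -0.59 to -0.18). In this list of 12 genes 9 were compared, with a median of -0.27, and 3 intervals lay above no change and 6 below it (33.3% and 66.7%, against 25.1% and 26.3% of all genes). The 3 above were B4GALT1, GCNT1 and ST3GAL3, with log2 fold changes of 0.42, 0.58 and 0.35.

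Of 17 counter-receptors and niche receptors 7 were compared and 0 passed 2-fold in either direction, where 5.15% of all genes were higher and 4.79% lower. The intervals of 2 lay above no change and those of 2 below it (28.6% each, against 25.1% and 26.3% of all genes). PVR (CD155), a ligand of CD226, had 380 and 224 reads (log2 fold change -0.998, -1.24 to -0.76), just short of 2-fold, while NECTIN2, the other ligand, had 904 and 1079 (0.02, -0.11 to 0.15). CXCR4, the chemokine receptor for bone marrow homing, had 2387 and 1784 reads (-0.66, -0.75 to -0.57). VCAM1 (bound by ITGA4 with beta1), CDH1 (bound by ITGAE with beta7), CD2 (bound by CD58) and CD34 had 0 reads in both libraries, which is under the floor of 3 reads. CXADR, the ligand of JAML, had 0 as well. MADCAM1, bound by ITGA4 with beta7, had 7 and 12 reads (0.50, -0.92 to 2.12), and JAM3, which can bind Mac-1, had 7 and 1 and was not compared. ICAM5, a further ligand of LFA-1 that lies beside the other ICAM genes, had 171 and 307 reads (0.61, 0.33 to 0.89).

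Of 12 partners of CD44, other syndecans and sheddases 10 were compared and 0 passed 2-fold, where 5.15% and 4.79% of all genes were higher and lower, with a median of 0.23. The intervals of 6 lay above no change and those of 2 below it (6 and 2 of 10, against 25.1% and 26.3% of all genes). MSN encodes moesin, which ties CD44 and PSGL-1 to actin. It had 22805 and 26441 reads (log2 fold change -0.02, -0.05 to 0.00). The related EZR (ezrin) had 3213 and 3666 reads (-0.05, -0.12 to 0.02), while RDX (radixin) had 262 and 462 (0.58, 0.36 to 0.81). CD74, the invariant chain, which signals together with CD44, had 3175 and 4788 (0.36, 0.29 to 0.42). ADAM10 and ADAM17, proteases that shed adhesion receptors, had 1198 and 1790 reads (0.34, 0.24 to 0.45) and 610 and 900 reads (0.32, 0.17 to 0.47).

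**Figure D5:**
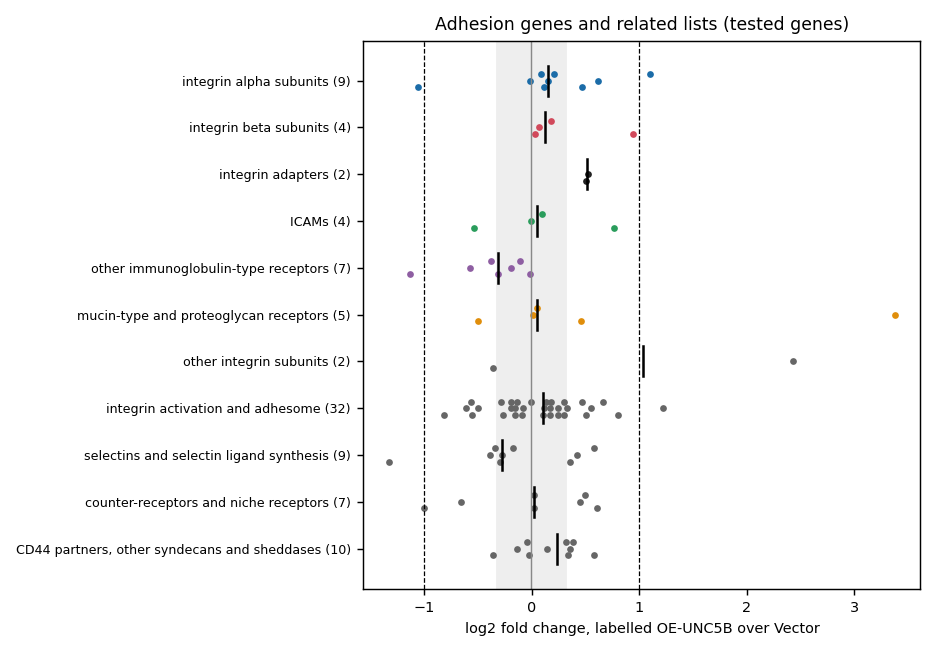
Log2 fold change of the library labelled OE-UNC5B over Vector for each gene compared (points), by role for the adhesion genes (colored) and by list for related genes (grey), with the number of genes in brackets and the median as a bar. The shaded band holds the middle of all 15384 genes, from quartile -0.33 to 0.32, and dashed lines mark 2-fold. Immunoglobulin-type receptors have points at or left of 0, and both adapters lie right of the band.

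Myeloid markers differed in both directions beside these genes. LYZ and MPO, products of granules, had 51742 and 23700 reads and 3363 and 1553 reads (log2 fold changes of -1.36 and -1.35), while PTPRC (CD45) had 1592 and 3102 (0.73, 0.64 to 0.81) and MEIS1 247 and 542 (0.90, 0.68 to 1.12). Of the 13 myeloid markers 12 were compared, and 5 intervals lay above no change and 4 below it (41.7% and 33.3%, against 25.1% and 26.3% of all genes). The part of these markers in the differences of the adhesion genes was not tested.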

How the data were processed

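RNA-seq of 1 Vector and 1 OE-UNC5B library of Molm13 was analysed. The table deposited by the authors gives whole read counts for each gene, not normalized. FPKM values deposited beside them use the summed gene counts as library size (count over FPKM differed between the libraries by 1.1393 to 1.1404, the totals by 1.1401). The submitters' processing notes name bcl2fastq 2.19, HISAT2 2.0.4, StringTie 1.3.0 and GRCh38. The annotation release and the strand setting are not given in the sources used here. The table held no other values per sample.

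All genes were scaled together with TMM (edgeR 4.0.16, R 4.3.3), with factors of 0.984 and 1.02, and 0.5 reads were added. Genes reaching 10 reads in the sum of both libraries were compared (15384 genes, median 269.5 and 316 reads). A gene was called at 2-fold. The 95% intervals follow Clopper and Pearson, from the share of reads in each library (scipy 1.17.1). Gene positions were those deposited with the counts. Canonical lengths and exon overlaps came from GENCODE 44, which held 49659 of the 50868 gene identifiers. The steps were tested on simulated data with counting error only, which cannot show how variation between cultures affects the calls. The alternatives scaled by library totals or by DESeq2 1.42.0 size factors, used FPKM plus 0.1 or plus 1, added 2 reads, left out the filter or raised it to 50 reads, and called at 1.5-fold or at 2-fold with an exact binomial test on the reads. Expression was also set at 0.5 FPKM, at 1 CPM, or, chosen after seeing the data, over canonical transcripts.

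The text names every member, UNC5B, list genes past 2-fold, those that pair with a described member, and the largest contributors to a summed level. Other list genes named (TLN2, PTK2B, PARVB, ADAM10, ADAM17, MEIS1, CD33 and SPI1 among them) were chosen after their values were seen. Some list genes are not reported here. The members and lists were chosen with earlier results of these data known.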

Additional observations from a re-analysis of the deposited data

How the results depend on the processing

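No paired analysis was possible because each group held 1 library, and no replicate could be left out. Scaling by library totals or DESeq2 size factors raised each log2 fold change by 0.0479 or 0.0354 and kept the same 4 adhesion genes past 2-fold. Of all genes, 872 were higher and 664 lower under library totals, and 858 and 673 under size factors, where TMM gave 792 and 737. Signs changed only in F11R, ICAM3 and ITGA4. With 0.1 added to FPKM, 1 adhesion gene was higher (ITGAX) and 0 were lower, among 392 and 281 of all genes. With 1 added to FPKM, 0 and 0 passed, among 165 and 130. Both need an FPKM of 1 in a library, which leaves 24 adhesion genes of 11564 genes, without SDC3, MPZL1 and ITGA6. With 2 reads added, 2 were higher and 1 was lower (MPZL1), among 669 and 661. Without a filter, 3 were higher and 4 lower, the added ones having at most 5 reads in a library, among 2886 and 3079 (36 of 22138 genes compared). With at least 50 reads, 2 were higher and 1 lower, among 359 and 297 (30 of 12290). At 1.5-fold, 5 were higher and 2 lower, among 1989 and 1925. With 2-fold and the exact binomial test on the reads, 2 were higher and 1 lower, among 508 and 495, as ITGA6 dropped out. Expressed genes numbered 21, and 25 at 0.5 FPKM, 29 at 1 CPM and 27 over canonical transcripts. Of 141 values of single genes under the alternatives that can move them, 137 stayed within their counting interval and 4 did not, and no gene past 2-fold changed sign. ITGA6 had the widest interval of the 31 adhesion genes compared, and variation between cultures is in no interval.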
